A study of Mus musculus with 16 samples.

Results

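Nuclear-encoded subunits of the respiratory chain were followed in RNA sequencing libraries of cells sorted from mouse intestinal tumours. The genes were chosen by symbol alone: protein-coding genes named Nduf with the letter a, b, c, s or v and a number, the 4 Sdh genes, and the genes whose symbols start with Uqcr, Cox4 to Cox8, or Atp5. This rule gave 87 of the 36528 genes listed in each library, 38 in complex I, 4 in complex II, 8 in complex III, 20 in complex IV and 17 in complex V. Ndufa4 and Ndufa4l2 were placed in complex IV, where the Ndufa4 protein is now known to sit. Of the 87 genes, 81 passed the filter on low counts and were tested. The 6 that did not pass were Ndufb4b, Ndufb4c, Cox6a2, Cox7b2, Cox8b and Cox8c.

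The libraries came from 4 groups with 4 libraries each, 16 in all: AKVPSL GFP+, AKVPSL GFP-, AKVPL GFP+ and AKVPL GFP- cells. AKVPSL and AKVPL are genotype names whose letters the labels do not spell out; they share A, K, V, P and L and differ by S. GFP+ and GFP- are the sorted populations, which the design text calls positive and negative for Lgr5, a receptor that marks stem cells at the base of the intestinal crypt. Every sample title names the colon, while the tissue field gives the small intestine for 15 libraries and the colon for AKVPSL GFP- replicate 1. The labels give no strain or age, and do not say whether replicates are separate mice or tumours, so that a p-value reflects only how far these libraries scatter, some of which may be technical. The comparisons ask how Lgr5+ and Lgr5- tumour cells differ within each genotype, and how the genotypes differ within each population.

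The respiratory chain sits in the inner mitochondrial membrane. Complex I takes electrons from NADH and complex II takes them from succinate, both pass them to ubiquinone, complex III moves them on to cytochrome c, and complex IV delivers them to oxygen. Complexes I, III and IV pump protons, and complex V, the ATP synthase, uses the returning protons to make ATP. Each complex except complex II combines subunits made from mitochondrial DNA with nuclear-encoded ones. Some nuclear subunits carry the catalytic sites, while many others are small accessory proteins, and a few in complexes IV and V have isoforms used in particular tissues. In the normal intestinal crypt, Lgr5+ stem cells are known for a high oxidative activity compared with neighbouring Paneth cells.

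Libraries held between 10.881 M and 41.602 M counts, with M for 1e6. The 87 genes together held between 0.736% and 1.312% of a library's counts. Markers of epithelium, such as keratins and claudins, summed to between 9947 and 14660 CPM (counts per 1e6, on the scaled library sizes used in the test) in every library, and none of the 18 was at 0. Markers of other cells were present too, mostly in GFP- cells: the 10 leukocyte genes summed to between 43.5 and 234 CPM in AKVPSL GFP+, 662 and 2845 CPM in AKVPSL GFP-, 377 and 1016 CPM in AKVPL GFP+, and 3622 and 6776 CPM in AKVPL GFP-. The 10 fibroblast genes summed to between 184 and 953 CPM, 1242 and 2541 CPM, 506 and 1069 CPM, and 3884 and 8427 CPM in the same 4 groups. No gene of these lists was at 0 in any group. Endothelial markers fell in GFP+ cells too, 8 of 10 in AKVPSL, where 1 rose, and 10 of 10 in AKVPL. In such bulk samples, fewer cells of a type and less RNA per cell cannot be told apart.

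The most abundant subunits per length of transcript belonged to complexes IV and V. Levels are given on the deposited RPKM scale (reads per kilobase and 1e6 reads, a level per length), as means over the 16 libraries. Atp5b, the catalytic beta subunit of the ATP synthase, stood at 615 RPKM. Cox4i1, the ubiquitous isoform of a complex IV subunit, stood at 584 RPKM. Atp5a1, the alpha subunit beside beta in the catalytic head, stood at 462 RPKM. The highest level in complex III was that of Uqcrh, the hinge protein, at 247 RPKM. In complex I it was that of the accessory subunit Ndufa6, at 215 RPKM, and in complex II that of the membrane anchor Sdhd, at 123 RPKM. Some low values touch on how reads were counted, since only uniquely aligned reads entered the counts. Of the members with a transcript in the annotation used, 17 share at least 20% of their 50-base stretches with transcripts of other genes, and their median level was 29.23 RPKM. The other 67 had a median of 88.09 RPKM. Under 25 RPKM lay 8 of the 17 and 10 of the 67. High shares did not always go with low levels, as Atp5o (45.62%) and Cox5a (32.05%) stood at 144 and 197 RPKM. Atp5l, a membrane subunit of the ATP synthase, shares 84.85% of its stretches with other genes and was listed at 1.99 RPKM, and Ndufb4, Ndufs5, Uqcrb and Atp5g2 were low with shares of 37.0%, 21.7%, 43.4% and 38.4%. Levels and changes of these genes are uncertain.

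Promoters are shown for 5 members, because 4 of them, Ndufa4, Cox6a1, Atp5k and Uqcr11, are among those with the largest differences described below, while Uqcrc1, a core subunit of complex III, passed the test in none of the 5 comparisons. Each window holds 170 bases before and 30 bases after the gene's start from RefSeq (GRCm38.p6), 5′ to 3′ on the gene's strand, and capitals mark matches to the motifs of NRF1 (GCGCA and GCGC with any 1 base between them) and GABP (CCGGAAG), factors known to bind promoters of respiratory genes, on either strand.
Ndufa4 promoter, chr6:11907421-11907620, minus strand: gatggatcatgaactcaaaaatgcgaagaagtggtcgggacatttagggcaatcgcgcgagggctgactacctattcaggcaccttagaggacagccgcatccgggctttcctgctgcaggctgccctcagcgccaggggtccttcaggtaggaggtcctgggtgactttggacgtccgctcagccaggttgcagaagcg
Cox6a1 promoter, chr5:115348929-115349128, minus strand: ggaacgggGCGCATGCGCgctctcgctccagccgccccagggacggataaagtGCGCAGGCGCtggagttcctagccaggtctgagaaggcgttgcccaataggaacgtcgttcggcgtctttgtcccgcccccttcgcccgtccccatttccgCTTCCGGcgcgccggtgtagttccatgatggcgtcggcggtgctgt
Atp5k promoter, chr5:108434370-108434569, minus strand: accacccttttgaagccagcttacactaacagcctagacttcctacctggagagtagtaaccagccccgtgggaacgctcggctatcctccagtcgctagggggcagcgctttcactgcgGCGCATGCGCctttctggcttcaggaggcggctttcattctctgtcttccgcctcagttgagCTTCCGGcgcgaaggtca
Uqcr11 promoter, chr10:80406792-80406991, minus strand: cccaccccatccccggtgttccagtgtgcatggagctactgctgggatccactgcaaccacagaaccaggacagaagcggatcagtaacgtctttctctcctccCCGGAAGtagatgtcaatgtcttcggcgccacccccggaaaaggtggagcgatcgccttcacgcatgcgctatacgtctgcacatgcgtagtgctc
Uqcrc1 promoter, chr9:108936478-108936677, plus strand: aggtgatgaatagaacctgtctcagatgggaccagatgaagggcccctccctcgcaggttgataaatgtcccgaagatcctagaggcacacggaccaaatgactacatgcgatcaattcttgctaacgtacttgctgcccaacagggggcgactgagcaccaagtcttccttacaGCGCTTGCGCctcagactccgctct
The Cox6a1 window held 2 NRF1 matches and 1 GABP match, Atp5k 1 of each, Uqcr11 1 GABP match and Uqcrc1 1 NRF1 match, and none was found in the Ndufa4 window. Of the 67 tested members with an entry in the promoter table, 25.4% held the NRF1 motif and 25.4% the GABP motif, against 9.50% and 17.2% of 12973 tested genes. These shares count genes with a match anywhere in their promoter entries, which are longer than the printed windows. On the same entries, the YY1 motif AANATGGCG was found for 14.9% of members and 4.85% of all genes, and the letters CCAAT for 43.3% and 41.9%. A TATA box, searched as TATAAA, was found for 8.96% of members and 9.89% of all genes. These are matches of letters on both strands, and no binding was measured.

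**Figure D1:**
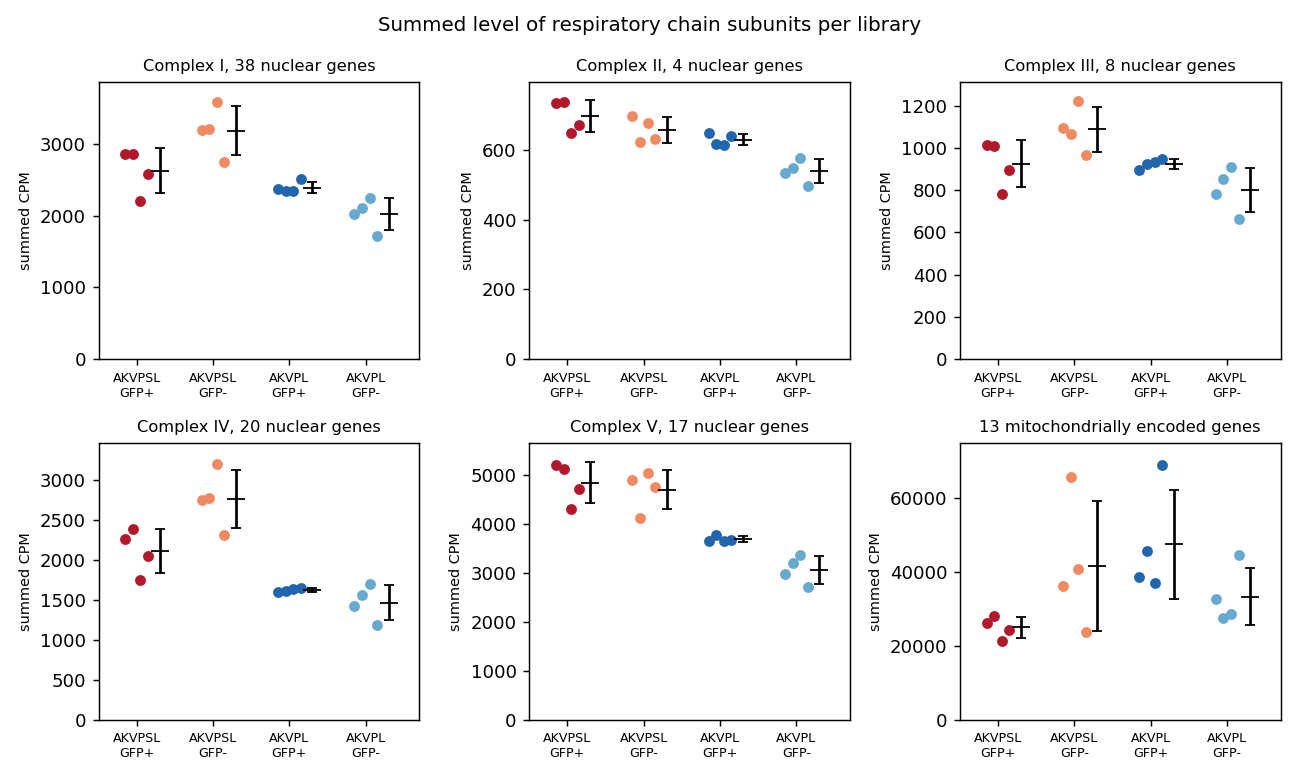
Summed CPM of the nuclear-encoded subunits of each complex, and of the 13 mitochondrially encoded subunits, in each of the 16 libraries (points) with the mean and SD over 4 libraries (bars). Complexes I, III and IV were highest in AKVPSL GFP- and every complex was lowest on average in AKVPL GFP-.

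Summed over all 87 genes, the subunits stood at 12100, 12140, 9707 and 10910 CPM in AKVPSL GFP+, 12650, 11820, 13730 and 11420 CPM in AKVPSL GFP-, 9174, 9274, 9187 and 9428 CPM in AKVPL GFP+ and 7742, 8269, 8804 and 6785 CPM in AKVPL GFP-. All 8 AKVPSL libraries lay above all 8 AKVPL libraries, the lowest of them being AKVPSL GFP+ replicate 3, which lay apart from its group. This separation depended on the scaling. With CPM on unscaled library totals, AKVPSL GFP+ replicate 3 stood at 9080 CPM, below the AKVPL GFP+ libraries (9141 to 9544 CPM). The complexes did not share 1 pattern. Complex IV averaged 2114 ± 279.9 CPM in AKVPSL GFP+ and 2764 ± 362 CPM in AKVPSL GFP- (SD, n = 4 each), against 1626 ± 25.3 CPM in AKVPL GFP+ and 1468 ± 215 CPM in AKVPL GFP-. Complex II was higher on average in the GFP+ cells of both genotypes, with 700.0 ± 45.6 CPM in AKVPSL GFP+ and 659 ± 36.2 CPM in AKVPSL GFP-, and 631 ± 16.7 CPM in AKVPL GFP+ and 541 ± 33.6 CPM in AKVPL GFP-. In AKVPSL this difference was smaller than the SD in GFP+ cells. Only Sdha was higher there on average, while Sdhb, Sdhc and Sdhd were lower. In summed RPKM the order turned, with 391.5 in AKVPSL GFP+ and 397.2 in AKVPSL GFP-. Complex V, whose sum is led by Atp5a1 and Atp5b, averaged 4851 ± 415 CPM in AKVPSL GFP+ and 4711 ± 400.2 CPM in AKVPSL GFP-, a difference smaller than either SD. These sums are descriptions, and the tests below are on single genes.

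In AKVPSL tumours, most tested subunits of complexes I, III, IV and V had less RNA in GFP+ than in GFP- cells, while Sdha, Ndufs1 and Atp5b had more. Of the 81 tested genes 46 fell and 3 rose in GFP+ cells (edgeR adjusted p under 0.05, adjusted over all 18072 genes tested). Over all genes tested, 24.6% fell and 22.4% rose. The median log2 fold change of the members was -0.39, against -0.01 over all genes. In complex I 21 of 36 tested genes fell, in complex III 5 of 8, in complex IV 11 of 16 and in complex V 9 of 17, while in complex II none of 4 fell. The number that fell depended on 1 library: without AKVPSL GFP+ replicate 3 it was 29, and over the 16 fits that each left out a library it ran from 29 to 58. Leukocyte and fibroblast markers fell in 10 of 10 genes each and mitosis genes rose in 13 of 18 in the same cells (8 without AKVPSL GFP+ replicate 1), and their part in the result was not tested. With libraries scaled on epithelial marker genes, called epithelial scaling here, 56 fell and 1 rose (28.3% and 17.1% of all genes). The 3 that rose became 1 without AKVPSL GFP+ replicate 1 or 2 or AKVPSL GFP- replicate 1. The 18 epithelial markers are not a steady reference for scaling, because many of them passed the main test themselves. For GFP+ against GFP-, 3 markers were up and 5 down in AKVPSL, while 9 were up and 0 down in AKVPL. For AKVPSL against AKVPL, 11 markers were up and 2 down in GFP-, and 6 up and 5 down in GFP+.

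Apart from the isoforms Ndufa4l2 and Cox6b2, which are described further on, Uqcrq, a small accessory subunit of complex III, fell furthest (chromosome 11, 53427922 to 53430831). It had 86.3, 85.8, 53.8 and 67.4 CPM in AKVPSL GFP+, against 125, 122, 189 and 133 CPM in AKVPSL GFP-. The groups did not overlap, and the log2 fold change was -0.96 ± 0.16 (SE; edgeR adjusted p = 0.000139). Atp5k, which encodes subunit e at the dimer interface of the ATP synthase (chromosome 5, 108433246 to 108434399), had 53.5, 58.7, 40.1 and 51.1 CPM in GFP+ and 80.3, 93.9, 93.9 and 62.6 CPM in GFP- cells, again with no overlap, a change of -0.70 ± 0.14 (adjusted p = 0.000479). Cox6a1, the ubiquitous isoform of a regulatory subunit of complex IV (chromosome 5, 115345652 to 115348958), had 262, 279, 183 and 226 CPM in GFP+ and 361, 369, 361 and 276 CPM in GFP- cells. Its groups overlapped at 1 point, since GFP- replicate 4 lay below GFP+ replicate 2, and the change was -0.52 ± 0.13 (adjusted p = 0.00377). Ndufa4, a subunit of complex IV first assigned to complex I (chromosome 6, 11900372 to 11907450), had 359, 372, 252 and 291 CPM in GFP+ and 461, 440.3, 450.3 and 351 CPM in GFP- cells and changed by -0.42 ± 0.12 (adjusted p = 0.00936), with GFP- replicate 4 below 2 of the GFP+ libraries.

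Ndufb7, an accessory subunit of complex I, had 57.9, 58.0, 43.2 and 53.1 CPM in AKVPSL GFP+ and 79.7, 87.3, 103 and 70.7 CPM in AKVPSL GFP-. Among complex I accessory subunits the smallest adjusted p-values belonged to Ndufb7, Ndufa2, Ndufa3 and Ndufa11, at -0.68 ± 0.13, -0.63 ± 0.14, -0.64 ± 0.15 and -0.47 ± 0.12. Ndufa6 fell to 169 ± 15.6 CPM in GFP+, against 218 ± 31.8 CPM in GFP- cells, a change of -0.37 ± 0.10 (adjusted p = 0.0054). In complex III, Uqcr11 and Uqcr10, the smallest subunits of that complex, fell by 0.56 and 0.41 on the log2 scale. In complex V, Atp5e, the epsilon subunit of the central stalk, Atp5j2, a membrane subunit, and Atp5d, the delta subunit of the stalk, changed by -0.61 ± 0.14, -0.44 ± 0.12 and -0.41 ± 0.11. The calls of Uqcrh (-0.36), Cox8a (-0.39), Cox7b (-0.52), Cox7a2 (-0.39) and Ndufa12 (-0.43) each ended without AKVPSL GFP+ replicate 3 or 4 or AKVPSL GFP- replicate 2, and those of Uqcrh and Cox8a also without AKVPSL GFP- replicate 3, at values from -0.47 to -0.24. That of Uqcr10 ended without AKVPSL GFP- replicate 3 (-0.31).

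The 3 genes that rose encode large subunits. Sdha, the flavoprotein of complex II that oxidises succinate (chromosome 13, 74322255 to 74350240), had 321, 302, 299.6 and 301 CPM in AKVPSL GFP+ and 248, 182, 228 and 243 CPM in AKVPSL GFP-, with no overlap and a change of 0.44 ± 0.09 (adjusted p = 0.000526). Ndufs1, the largest subunit of complex I, which carries iron-sulphur clusters, had 137, 129, 119 and 115 CPM in GFP+ and 114, 112, 102 and 103 CPM in GFP- cells (0.21 ± 0.08, adjusted p = 0.0383). Atp5b rose by 0.28 ± 0.10 (adjusted p = 0.0338), to 1472 ± 97.2 CPM in GFP+, against 1210 ± 184 CPM in GFP- cells. The call of Ndufs1 ended without AKVPSL GFP+ replicate 1 or 2 or AKVPSL GFP- replicate 1, 3 or 4 (0.08 to 0.20). That of Atp5b ended without AKVPSL GFP+ replicate 1, 2 or 4 or AKVPSL GFP- replicate 1 or 2 (0.17 to 0.29), while Sdha kept its call in all 16 such fits. Other catalytic or core subunits differed in their calls, and those given here were chosen after their values were seen. Of complex I, Ndufs7 and Ndufv2 fell, at -0.43 ± 0.13 and -0.35 ± 0.12 (adjusted p = 0.0101 and 0.0299), while Ndufs3, Ndufs8 and Ndufv1, which binds NADH, did not pass the test at 0.01 ± 0.11, -0.27 ± 0.12 and 0.09 ± 0.10. In complexes III and V, Uqcrc1, Uqcrc2, Atp5a1 and Atp5c1, the gamma subunit that turns in the head, did not pass either, at -0.03 ± 0.11, 0.12 ± 0.09, 0.21 ± 0.10 and 0.10 ± 0.09, but Atp5pb, of the stator stalk, fell (-0.31 ± 0.10, adjusted p = 0.0196). The call of Ndufs7 ended without AKVPSL GFP- replicate 3 (-0.26), that of Ndufv2 without AKVPSL GFP+ replicate 3 or 4 or AKVPSL GFP- replicate 2 or 3 (-0.33 to -0.24), and that of Atp5pb without AKVPSL GFP+ replicate 3 or 4 (-0.24 and -0.27).

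**Figure D2:**
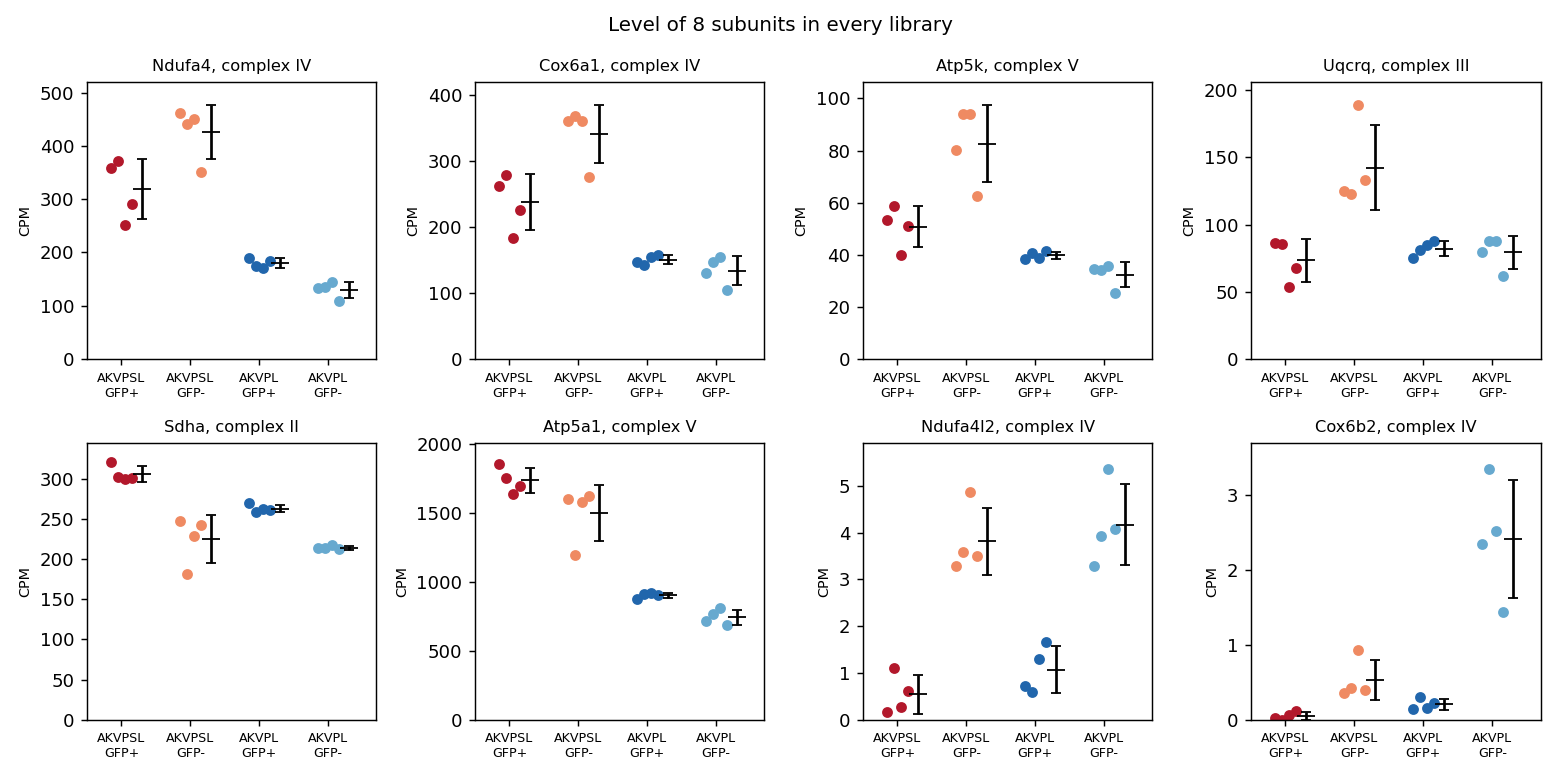
CPM of 8 subunits in each of the 16 libraries (points) with the mean and SD over 4 libraries (bars). Ndufa4, Cox6a1, Atp5k and Uqcrq were highest on average in AKVPSL GFP- cells, Sdha was highest in AKVPSL GFP+ cells, Atp5a1 was higher in every AKVPSL than in every AKVPL library, and Ndufa4l2 and Cox6b2 were lower in GFP+ than in GFP- cells.

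Small subunits have short genes, and in these libraries the sort difference in AKVPSL moved with gene length over all genes. The gene-model length, read from the ratio of counts to RPKM, had a median of 0.812 kb for the 81 members (0.314 to 3.251 kb) and 3.20 kb for all genes tested. Spearman's rho between length and log2 fold change in AKVPSL was 0.55 across the 81 members and 0.28 across all genes, as a description across genes that share the same libraries. Of the 985 tested genes under 0.7 kb, 36.0% fell, with a median of -0.40, and of the 33 members under 0.7 kb 28 fell, with a median of -0.51. In genes over 5 kb, a class with no member, 45.0% rose and the median was 0.29. When the trend of fold change with length over all genes was removed, an alternative chosen after seeing the data, 13 members fell and 12 rose (22.1% and 18.3% of all genes) and their median was -0.10. Of the genes named above, Uqcrq, Atp5k, Sdha, Ndufb7, Ndufa2, Ndufa3, Ndufa11 and Atp5e kept their direction and call. Cox6a1, Ndufa4, Uqcr11, Uqcr10, Ndufa6, Atp5j2, Atp5d, Ndufs7, Ndufv2 and Atp5pb did not pass the test then, at -0.22, -0.20, -0.25, -0.10, -0.06, -0.13, -0.13, -0.16, -0.15 and -0.11. What part the gene length has in the result was not tested further.

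**Figure D3:**
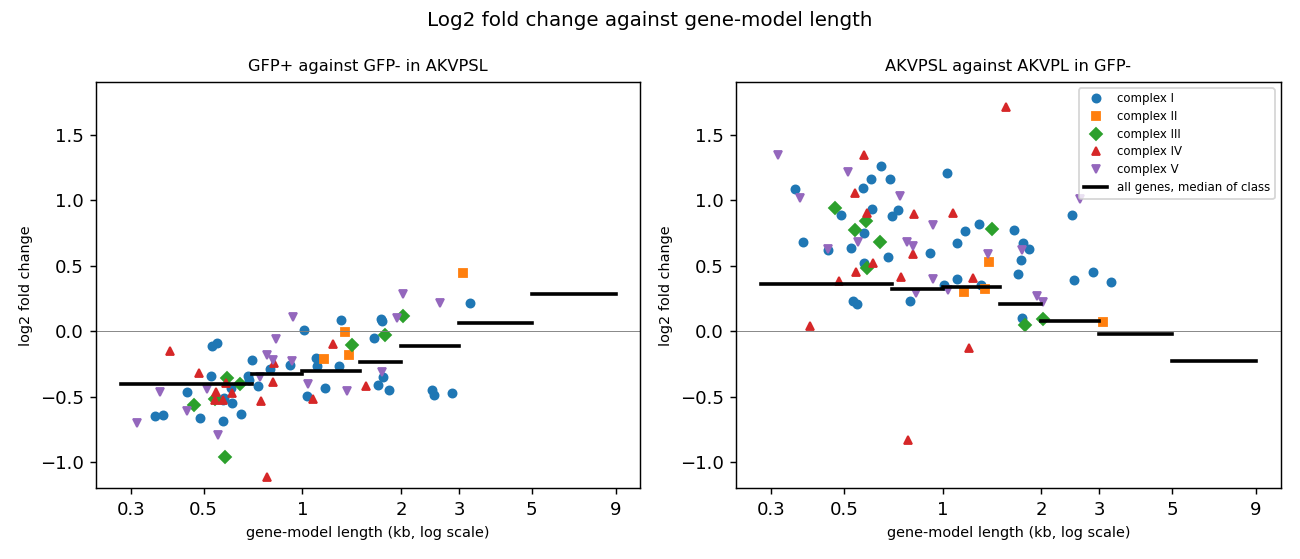
Log2 fold change of each tested subunit (points, by complex) against gene-model length in kb (log axis), with the median of all genes in 7 length classes as black lines. Left, GFP+ against GFP- cells in AKVPSL, where both subunits and all genes under 0.7 kb lay mostly below 0; right, AKVPSL against AKVPL in GFP- cells, where they lay mostly above 0. Cox6b2 (-3.30 and -2.21) and Ndufa4l2 (-2.84, left) lie outside the axis.

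In AKVPL tumours no subunit other than 3 isoforms passed the test as lower in GFP+ cells. There 16 of 81 rose and 3 fell (22.6% and 16.5% of all genes). The share that rose, 19.8%, was near that of all genes, the share that fell, 3.7%, was below it, and the median of members was 0.20, against 0.14 over all genes. In complex I 7 of 36 rose, in complex II 1 of 4, in complex III 2 of 8, in complex IV 2 of 16 and in complex V 4 of 17, and the 3 that fell were Cox6b2, Ndufa4l2 and Cox4i2. Among those that rose Ndufs1 had the smallest adjusted p, with 114, 112, 106 and 112 CPM in AKVPL GFP+ and 87.0, 80.3, 89.9 and 75.8 CPM in AKVPL GFP-, with no overlap (0.41 ± 0.08, adjusted p = 0.000626). Ndufa12, an accessory subunit, had 21.1, 24.1, 22.9 and 24.6 CPM in GFP+ and 16.6, 16.6, 18.2 and 13.5 CPM in GFP- cells (0.51 ± 0.15, adjusted p = 0.0127). Atp5g1, a gene for subunit c of the ATP synthase, passed at 0.51 but in only 7 of the 16 fits that each left out a library (0.40 to 0.53 in the 9 others). Ndufa4 had 189.8, 175, 171 and 185 CPM in GFP+ and 133, 135, 144 and 108 CPM in GFP- cells and rose too (0.47 ± 0.12, adjusted p = 0.00558). The count of 16 rested on the scaling and on single libraries. It was 10 without AKVPL GFP+ replicate 4 or AKVPL GFP- replicate 1, 5 without AKVPL GFP- replicate 4, 4 without AKVPSL GFP+ replicate 1 or AKVPSL GFP- replicate 1, and 6 without AKVPSL GFP- replicate 4. With epithelial scaling none rose and 16 fell (3.31% and 37.1% of all genes), as the median of all genes moved to -0.28 and that of the members to -0.22. With the length trend removed, 12 rose and 3 fell (17.3% and 18.9% of all genes).

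The 2 sort effects were compared by their difference, the AKVPSL effect minus the AKVPL effect. It was below 0 and past the threshold for 42 of 81 members and above 0 for none (13.7% and 7.01% of all genes), with a median of -0.55, against -0.10 over all genes. By complex the 42 were 23 in complex I, none in complex II, 4 in complex III, 7 in complex IV and 8 in complex V. Uqcr11 had the most negative value, -1.01 ± 0.20 (SE; adjusted p = 0.002), with 57.2, 53.1, 38.4 and 48.1 CPM in AKVPSL GFP+ and 70.02, 79.5, 81.8 and 59.1 CPM in AKVPSL GFP-, and 49.1, 47.1, 55.4 and 55.1 CPM in AKVPL GFP+ and 38.7, 38.1, 45.4 and 29.1 CPM in AKVPL GFP-. GFP+ lay below GFP- in AKVPSL and above it in AKVPL, with no overlap either time. The value was -1.004 ± 0.23 (adjusted p = 0.00491) for Uqcrq, -0.995 ± 0.20 (adjusted p = 0.00197) for Atp5k and -0.89 ± 0.17 (adjusted p = 0.002) for Ndufa4. Ndufs6, a zinc-binding subunit of complex I, and Ndufb7 stood at -0.98 ± 0.21 and -0.85 ± 0.18. With the length trend removed, 10 members were below 0 and none above (8.41% and 6.55% of all genes), Uqcr11, Uqcrq, Atp5k, Ndufa4, Ndufs6 and Ndufb7 among them. With epithelial scaling, 9 were below 0 and 1 above (3.98% and 20.2% of all genes). Of the 18 epithelial markers used for that scaling, 8 passed the main test of this difference below 0 and 0 above.

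**Figure D4:**
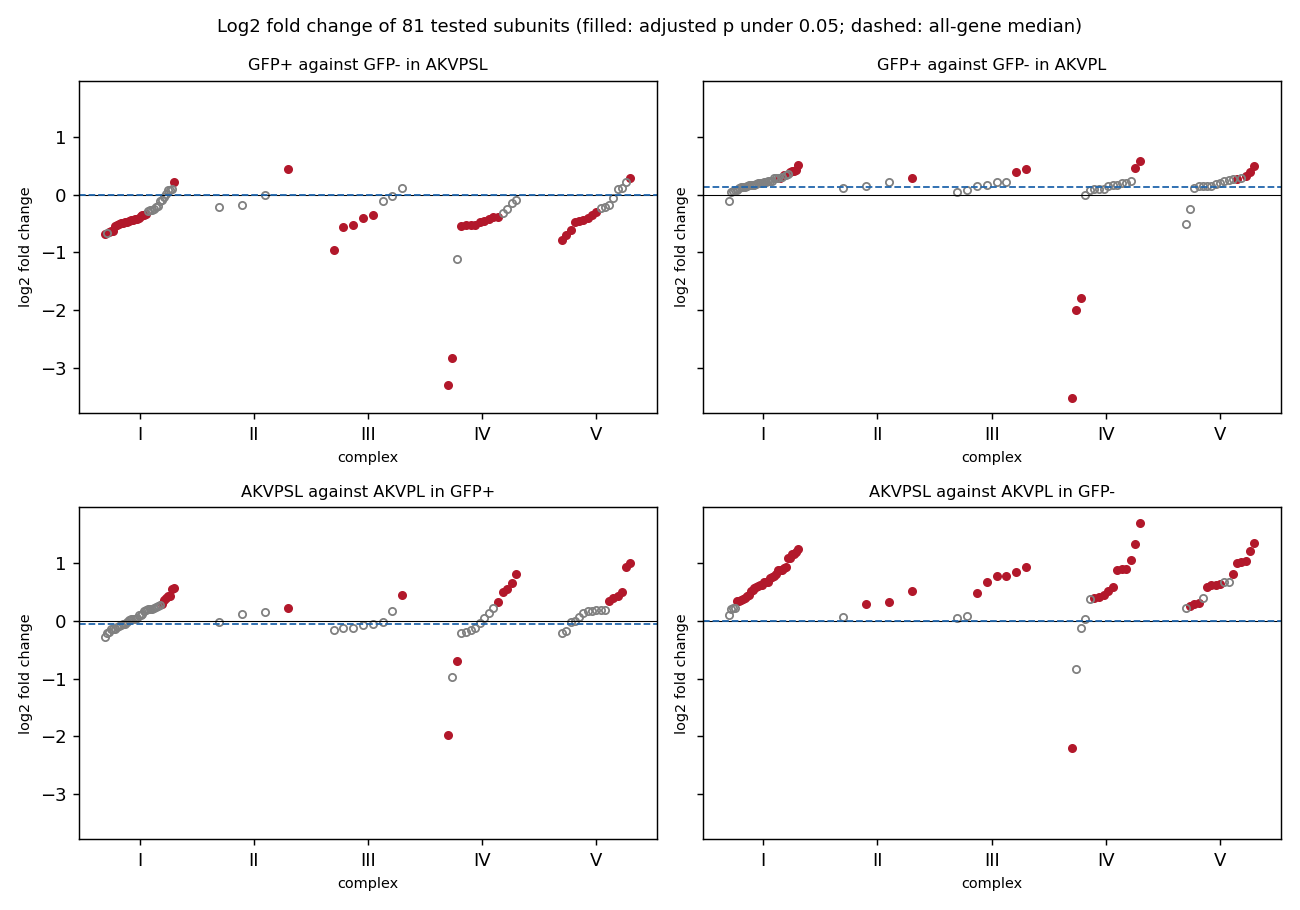
Log2 fold change of the 81 tested subunits by complex in 4 comparisons, ordered within each complex; filled points passed the test and the dashed line is the median of all genes tested. In AKVPSL 46 subunits lay below 0 and passed (top left), and between genotypes in GFP- cells 65 lay above 0 and passed (bottom right).

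In GFP- cells, most subunits had more RNA in AKVPSL tumours than in those of AKVPL. There 65 of 81 members rose and 1, Cox6b2, fell (32.0% and 30.7% of all genes), with a median of 0.62, against 0.00 over all genes. Every complex took part: 32 of 36 genes rose in complex I, 3 of 4 in complex II, 6 of 8 in complex III, 11 of 16 in complex IV and 13 of 17 in complex V. Ndufa4 rose the most: its 4 AKVPSL GFP- libraries stood between 351 and 461 CPM, and its 4 AKVPL GFP- libraries between 108 and 144 CPM (1.71 ± 0.13, adjusted p = 2.22e-09). Cox6a1 had 361, 369, 361 and 276 CPM in AKVPSL GFP-, against 131, 146, 154 and 105 CPM in AKVPL GFP- (1.35 ± 0.14, adjusted p = 1.25e-07). Atp5k had 80.3, 93.9, 93.9 and 62.6 CPM in AKVPSL GFP-, against 34.4, 34.0, 35.7 and 25.2 CPM in AKVPL GFP- (1.35 ± 0.14, adjusted p = 1.64e-07). For all 3 genes every AKVPSL library lay above every AKVPL library. Uqcrfs1, the Rieske iron-sulphur protein of complex III, rose by 0.78, Ndufa2 by 1.26, Ndufa6 by 1.16 and Atp5j2 by 1.22 on the log2 scale. Of the core subunits, Ndufs1, Ndufs3, Ndufs7, Ndufs8, Ndufv1 and Ndufv2 rose by between 0.35 and 0.77, while Uqcrc1, Uqcrc2, Sdha and Atp5b did not pass the test, at 0.05 ± 0.11, 0.10 ± 0.09, 0.07 ± 0.09 and 0.23 ± 0.10. With epithelial scaling Ndufs1, Ndufs3 and Ndufv1 lost this call, at -0.001, -0.02 and 0.17, and with the length trend removed Ndufs3 did, at -0.04.

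Marker genes of several cell types differed in this comparison too. Leukocyte and fibroblast markers were lower in AKVPSL GFP- than in AKVPL GFP- cells, for 8 of 10 genes each, at the summed levels given above, and the 18 epithelial genes summed to between 13330 and 14210 CPM in AKVPSL GFP- and between 9947 and 12340 CPM in AKVPL GFP-. Fewer leukocyte genes passed with a library left out: 3 without AKVPSL GFP- replicate 1 or AKVPL GFP- replicate 2 or 3, and 4 without AKVPSL GFP- replicate 2 or 4. Mitosis genes, such as kinesins and cyclins, rose in 18 of 18, summing to between 698 and 1103 CPM in AKVPSL GFP- and between 393 and 507 CPM in AKVPL GFP-. Their part in the result was not tested. With epithelial scaling 34 members rose and 6 fell (17.7% and 47.2% of all genes), with a median of 0.26, against -0.37 over all genes. With the length trend removed 40 rose and 2 fell (29.4% and 32.7% of all genes), with a median of 0.26, against -0.06. Ndufa4, Cox6a1, Atp5k, Ndufa2, Ndufa6, Uqcrfs1 and Atp5j2 kept their direction and call under both.

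Fewer members passed the test between genotypes in GFP+ cells: 20 of 81 members rose and 2 fell in AKVPSL (24.9% and 28.1% of all genes), with a median of 0.13, against -0.05 over all genes. The share that rose, 24.7%, was near that of all genes. Without AKVPSL GFP+ replicate 1, 13 rose and 1 fell. With epithelial scaling 15 rose and 4 fell (22.5% and 29.2% of all genes), and with the length trend removed 24 rose and 5 fell (25.7% and 29.3%). Atp5a1 (chromosome 18, 77773768 to 77782869) had the smallest adjusted p, with 1855, 1759, 1637 and 1699 CPM in AKVPSL GFP+, against 879, 914, 918 and 906 CPM in AKVPL GFP+ (0.94 ± 0.10, adjusted p = 2.9e-07). In GFP- cells it rose alike, with 1605, 1193, 1580 and 1623 CPM in AKVPSL GFP-, against 716, 770.1, 809 and 687 CPM in AKVPL GFP- (1.01 ± 0.10, adjusted p = 1.07e-07). All 8 AKVPSL libraries lay above all 8 AKVPL libraries. Ndufa4 and Cox6a1, whose values stand above for AKVPSL GFP+, rose by 0.82 ± 0.12 and 0.66 ± 0.14, against 180.2 ± 8.60 and 151 ± 7.06 CPM in AKVPL GFP+ (SD, n = 4), and Cox4i1 had 569, 579.5, 489 and 562 CPM in AKVPSL GFP+, against 350.2, 374, 384 and 388 CPM in AKVPL GFP+ (0.56 ± 0.13, adjusted p = 0.00158). Ndufa6 and Ndufa9 in complex I rose by 0.57 and 0.56, and Uqcrfs1 by 0.45. Sdha passed at 0.22, but not (0.21 to 0.23) on leaving out any 1 of the 8 GFP+ libraries or AKVPL GFP- replicate 1 or 2. Atp5k passed at 0.35, but not (0.28 to 0.37) without any 1 AKVPL GFP+ library or without AKVPSL GFP+ replicate 1, 2 or 4. Atp5g2, whose level is uncertain, passed at 1.003, but not when replicate 2 of AKVPL GFP+ (0.85) or replicate 1 of AKVPSL GFP+ (0.86) was left out.

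The genes that rose in GFP+ cells were not spread evenly over the chromosomes. Over all genes, 7 chromosomes (5, 6, 8, 12, 15, 18 and 19) had a median log2 difference between the genotypes above 0.15 in GFP+ cells, a limit set after seeing the values, so that no test is given. They hold 23 of the 81 members, and 18 of these rose, with a median of 0.43. Of all 5142 genes tested on these chromosomes 47.4% rose, with a median of 0.33. On the 13 others, 2 of 58 members rose and 2 fell, with a median of 0.01, where 16.1% of all genes rose and the median was -0.17. Atp5a1 lies on chromosome 18, whose genes had a median of 0.49, Cox6a1, Atp5k and Atp5j2 on chromosome 5 (0.48), Ndufa6 and Ndufb9 on chromosome 15 (0.35), and Ndufa4 and Ndufa9 on chromosome 6 (0.24). In GFP- cells 22 of the 23 members on the 7 chromosomes rose, with a median of 1.01. So did 43 of the 58 others, with a median of 0.50. Of all genes tested there, 47.4% rose on the 7 chromosomes (median 0.32) and 26.1% on the 13 others (median -0.12). Measured against the median of its chromosome, the median member was 0.14 higher in AKVPSL GFP+ (66 of 81 above 0) and 0.63 higher in AKVPSL GFP- (78 of 81 above 0). What part the chromosome has in the differences was not tested.

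**Figure D5:**
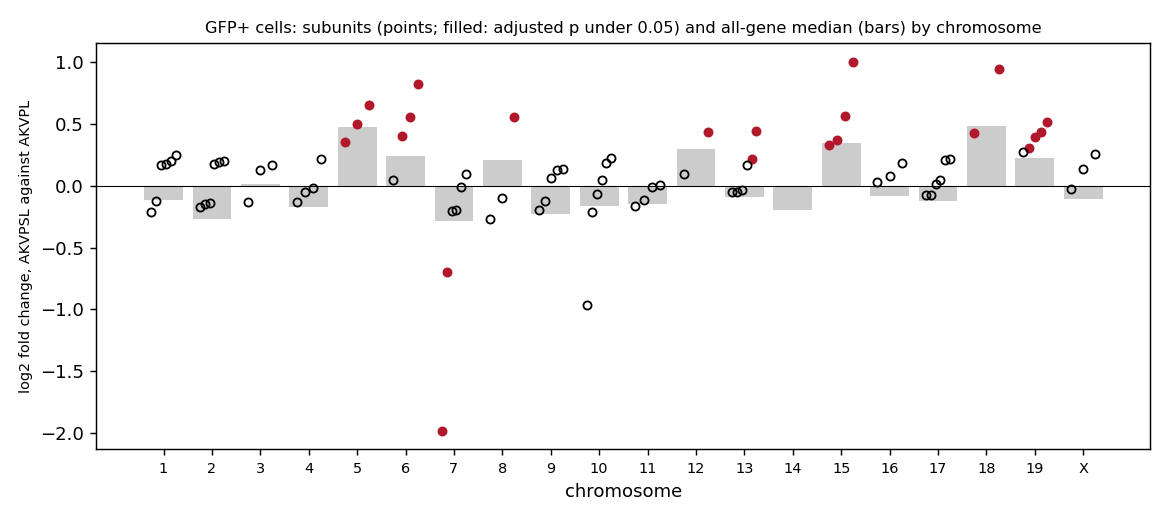
Log2 difference between AKVPSL and AKVPL in GFP+ cells for the 81 tested subunits (points, filled where the test was passed) and the median of all tested genes (bars), by chromosome. The filled points above 0 lie on chromosomes 5, 6, 8, 12, 15, 18 and 19, except 2 on chromosome 13.

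Complex II has no subunit made from mitochondrial DNA and also serves the tricarboxylic acid cycle. Between genotypes in GFP- cells 3 of its 4 genes rose, where 32.0% of all genes did. Only Sdha rose in GFP+ cells of AKVPL, in GFP+ cells of AKVPSL and between genotypes in GFP+ cells. Of all genes 22.6%, 22.4% and 24.9% rose in these comparisons. None of the 4 fell in any of them. Sdhb, the iron-sulphur subunit, had 111, 108, 89.3 and 91.6 CPM in AKVPSL GFP+, 128, 106, 122 and 107 CPM in AKVPSL GFP-, 104, 97.2, 102 and 102 CPM in AKVPL GFP+ and 90.3, 98.7, 106 and 80.1 CPM in AKVPL GFP-. Sdhc, which anchors the complex in the membrane with Sdhd, had 119, 125, 105 and 115 CPM in AKVPSL GFP+, 122, 113, 125 and 106 CPM in AKVPSL GFP-, 106, 103, 102 and 102 CPM in AKVPL GFP+ and 91.9, 95.5, 101 and 82.7 CPM in AKVPL GFP-. Sdhb overlapped between the groups in all 4 comparisons, and Sdhc did not overlap between genotypes in GFP- cells or between GFP+ and GFP- cells in AKVPL. Sdhd had 186, 204, 155 and 166 CPM in AKVPSL GFP+, 203, 225, 203 and 176 CPM in AKVPSL GFP-, 169.8, 161, 148 and 174 CPM in AKVPL GFP+ and 140.3, 142, 154 and 123 CPM in AKVPL GFP-. Each of these 3 passed the test in GFP- cells between the genotypes and in no other comparison, at 0.53 ± 0.10 (adjusted p = 0.000212) for Sdhd, 0.33 ± 0.08 (adjusted p = 0.00251) for Sdhc and 0.30 ± 0.10 (adjusted p = 0.0149) for Sdhb. The call of Sdhb ended without AKVPL GFP- replicate 4 (0.23) and under all but 1 of the 12 other settings, and that of Sdhc with epithelial scaling (-0.05) and with the length trend removed (-0.01). Sdha rose in GFP+ over GFP- cells in AKVPL as well, by 0.30 on the log2 scale, and lost this call on leaving out replicate 1 of AKVPSL GFP+, or replicate 1 or 4 of AKVPSL GFP- (0.21 each time).

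Isoforms tied to particular tissues were at low levels beside their ubiquitous partners. Ndufa4l2, a relative of Ndufa4 that hypoxia is known to induce, stood at 2.01 RPKM on average, and Cox6b2, known as the testis isoform of Cox6b1, at 1.24 RPKM. Ndufa4l2 had 0.173, 1.10, 0.267 and 0.617 CPM in AKVPSL GFP+, against 3.28, 3.58, 4.88 and 3.51 CPM in AKVPSL GFP-, and 0.719, 0.588, 1.29 and 1.66 CPM in AKVPL GFP+, against 3.29, 3.94, 5.37 and 4.07 CPM in AKVPL GFP-. GFP+ lay below GFP- in both genotypes with no overlap, at -2.84 ± 0.43 (adjusted p = 5.33e-05) in AKVPSL and -2.01 ± 0.41 (adjusted p = 0.000783) in AKVPL. Cox6b2 had 0.0248, 0, 0.0667 and 0.123 CPM in AKVPSL GFP+, against 0.361, 0.429, 0.931 and 0.403 CPM in AKVPSL GFP-, and 0.144, 0.309, 0.156 and 0.222 CPM in AKVPL GFP+, against 2.34, 3.35, 2.51 and 1.44 CPM in AKVPL GFP-. It fell in GFP+ cells of both genotypes (-3.30 ± 0.60 and -3.53 ± 0.45) and was lower in AKVPSL than in AKVPL, at -1.98 ± 0.66 in GFP+ and -2.21 ± 0.41 in GFP- cells. The GFP+ call between genotypes ended without AKVPSL GFP+ replicate 1 or AKVPL GFP+ replicate 2 (-1.69 and -1.68) and with limma on log2(RPKM + 1), at -0.275. Cox4i2, an isoform of Cox4i1 known from lung and oxygen-sensing cells, had 0.172, 0.0618, 0.156 and 0.388 CPM in AKVPL GFP+ and 0.567, 0.736, 0.677 and 0.508 CPM in AKVPL GFP- (-1.79 ± 0.48, adjusted p = 0.00614). In AKVPSL its groups overlapped, with 0.198, 0.134, 0.0667 and 0.247 CPM in GFP+ and 0.197, 0.477, 0.443 and 0.323 CPM in GFP- cells, and it did not pass the test (-1.11 ± 0.49, adjusted p = 0.072).

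Of 9 markers of pericytes, vessel wall cells, 7 fell and 1 rose in GFP+ cells in each genotype, and the list summed to between 66.5 and 101 CPM in AKVPSL GFP+, 99.2 and 168 CPM in AKVPSL GFP-, 88.5 and 106 CPM in AKVPL GFP+, and 271 and 381 CPM in AKVPL GFP-. No pericyte marker was at 0, and the part of these cells in the result was not tested. Cox7a1, the isoform of Cox7a2 known from heart and skeletal muscle, had 2.40, 3.25, 2.47 and 2.18 CPM in AKVPSL GFP+, against 3.51, 4.82, 3.91 and 4.49 CPM in AKVPL GFP+, with no overlap (-0.70 ± 0.20, adjusted p = 0.00757). In AKVPL GFP- it had 2.69, 3.57, 2.51 and 2.29 CPM, so that within AKVPL it was higher in GFP+ cells (0.58 ± 0.21, adjusted p = 0.032), a call kept in 8 of the 16 fits that each left out a library (0.50 to 0.57 in the 8 others). Of 12 striated muscle markers 6 passed the filter, and between genotypes in GFP+ cells 2 rose and 2 fell. The list summed to between 5.20 and 8.14 CPM in AKVPSL GFP+, 5.00 and 6.69 CPM in AKVPSL GFP-, 14.5 and 49.7 CPM in AKVPL GFP+, and 49.3 and 139 CPM in AKVPL GFP-. The part of muscle cells in the Cox7a1 result was not tested. The heart and muscle isoform Cox6a2 stayed at or below 0.399 CPM in every library. Among the 3 genes for subunit c of the ATP synthase ring, Atp5g3 gave most of the RNA, at 343 RPKM on average, against 7.56 RPKM for Atp5g1 and 1.42 RPKM for Atp5g2, whose low value is uncertain.

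The share of each minor isoform in the summed RPKM of its family does not depend on library scaling, and was compared by exact two-sided permutation tests, 28 in all. With 4 libraries a group the smallest possible p is 0.0286, which 13 of the 28 comparisons had as raw p. None passed after adjustment over the 28 (smallest adjusted exact p = 0.0616). This does not show that the shares were alike, because those 13 already stood at the smallest possible p. Ndufa4l2 made up 0.214 ± 0.143% of its pair in AKVPSL GFP+ and 1.16 ± 0.215% in AKVPSL GFP- (SD, n = 4 each), and 0.761 ± 0.354% in AKVPL GFP+ and 4.01 ± 0.752% in AKVPL GFP-. Cox7a1 made up 4.54 ± 0.632% of its pair in AKVPSL GFP+ and 7.39 ± 1.04% in AKVPL GFP+.

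The subunits made from mitochondrial DNA ordered the groups differently from the nuclear ones. The 13 genes summed to 26170, 28180, 21210 and 24360 CPM in AKVPSL GFP+, 36300, 65620, 40750 and 23810 CPM in AKVPSL GFP-, 38560, 45680, 36920 and 68920 CPM in AKVPL GFP+ and 32600, 27500, 28700 and 44540 CPM in AKVPL GFP-. AKVPSL GFP+ libraries were close together, while AKVPSL GFP- replicate 2, AKVPL GFP+ replicate 4 and AKVPL GFP- replicate 4 lay far above the rest of their groups. For every nuclear subunit count there were 2.16 to 2.32 mitochondrial ones in AKVPSL GFP+, 2.08 to 5.55 in AKVPSL GFP-, 4.02 to 7.31 in AKVPL GFP+ and 3.26 to 6.56 in AKVPL GFP-. Of the 11 tested genes 10 fell between genotypes in GFP+ cells (median -0.94), where 28.1% of all genes fell. With each library left out, 8 to 11 did so. In AKVPSL, 9 fell in GFP+ against GFP- cells (median -0.78), where 24.6% of all genes fell. However, only 1 passed when AKVPSL GFP- replicate 2 was left out (median -0.51). The count was 3 or 4 when replicate 3 or 4 of AKVPSL GFP+ was left out. With the length trend removed only 1 fell (median -0.54), against 22.1% of all genes. With epithelial scaling 9 fell (median -0.87), against 28.3% of all genes. None passed for GFP+ against GFP- in AKVPL (median 0.50), nor for AKVPSL against AKVPL in GFP- cells (median 0.26); the smallest adjusted p of the 2 comparisons was 0.114. ND1, of complex I, averaged 3818 ± 656 CPM in AKVPSL GFP+, 7128 ± 3003 CPM in AKVPSL GFP-, 7120 ± 2591 CPM in AKVPL GFP+ and 5046 ± 1073 CPM in AKVPL GFP- (SD, n = 4 each). COX2, COX3, ATP6, ATP8, ND3 and ND4L were listed at group means of 5.49 CPM or less, while the lowest group mean among the others was 1003 CPM, so that their levels are uncertain.

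Genes that build and feed the chain were set beside it, from lists chosen with earlier results of these data known. Of all genes, as given above, 24.6% fell and 22.4% rose in AKVPSL GFP+ cells, and 32.0% rose and 30.7% fell between genotypes in GFP- cells. Of the complex IV assembly factors, 12 of 24 fell in AKVPSL GFP+ cells and none rose (9 to 15 fell with each library left out), led by Higd1a (-1.22 ± 0.15), a hypoxia-induced factor, and Cox17 (-0.87 ± 0.14), a copper chaperone, and 19 of 24 rose between genotypes in GFP- cells. Complex I assembly factors gave 3 that fell and 1 that rose of 17 in AKVPSL GFP+ cells, and 10 that rose and 2 that fell between genotypes in GFP- cells. Of the mitochondrial ribosomal proteins, 44 of 78 fell and none rose in AKVPSL GFP+ cells, and 72 rose between genotypes in GFP- cells. The 44 became 26 without AKVPSL GFP+ replicate 3 and 28 without AKVPSL GFP- replicate 3. Cytosolic ribosomal proteins, which have no part in respiration, gave 57 of 83 that fell in AKVPSL GFP+ cells and 73 that rose between genotypes in GFP- cells. With the length trend removed, 22.1% of all genes fell and 18.3% rose in AKVPSL GFP+ cells. Of the cytosolic ribosomal proteins 27 of 83 fell and 1 rose then. Of the mitochondrial ones 18 of 78 fell, a share near that of all genes, and 5 rose. Of the complex IV assembly factors 7 of 24 fell and 0 rose. With epithelial scaling, 17.7% of all genes rose and 47.2% fell between genotypes in GFP- cells. Of the complex IV assembly factors 12 rose and 3 fell there, and of the complex I assembly factors 4 rose and 4 fell. Of the mitochondrial ribosomal proteins 43 rose and 1 fell, and of the cytosolic ones 48 rose and 1 fell.

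The tricarboxylic acid cycle, which supplies NADH and succinate, gave 8 of 19 genes that rose and none that fell in AKVPSL GFP+ cells (median 0.13), led by Pcx, pyruvate carboxylase (0.75 ± 0.10), and Pdha1, a subunit of pyruvate dehydrogenase (0.56 ± 0.09). The 8 became 5 without AKVPSL GFP+ replicate 1 or AKVPSL GFP- replicate 3 or 4. Between genotypes, 12 of the 19 rose in GFP+ cells, where 24.9% of all genes did, and 15 in GFP- cells, which with epithelial scaling became 7 that rose and 4 that fell (median 0.08). Regulators of mitochondrial genes gave 6 that rose and 1 that fell of 15 in AKVPSL GFP+ cells (2 rose without AKVPSL GFP+ replicate 1 or AKVPSL GFP- replicate 4, and 3 without AKVPSL GFP- replicate 3), led by the coactivators Ppargc1a (1.59 ± 0.17) and Ppargc1b (0.85 ± 0.17). Glycolysis genes gave 3 that rose and 6 that fell of 18 there, and 12 rose and none fell between genotypes in GFP+ cells (median 0.53). Electron carriers and ubiquinone synthesis genes gave 3 that rose and 1 that fell of 16 in AKVPSL GFP+ cells, a share of rises below that of all genes. Between genotypes in GFP- cells 12 rose (5 with epithelial scaling, where 1 fell), among them Coq2, an enzyme of ubiquinone synthesis (1.28 ± 0.09), and Cyc1, the cytochrome c1 of complex III (0.81 ± 0.10).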

How the data were processed

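RNA was sequenced from 16 libraries in 4 groups of 4, grouped by sample title. The deposited files hold, per gene, whole-number read counts and RPKM values made by the authors; reads were aligned with GSNAP to GRCm38, per the submitters' processing notes, and reads aligning uniquely to a gene model were counted, per the file headers, which call the RPKM size-factor-adjusted. The sources at hand do not say whether counting used strand. Of 36528 gene identifiers 31049 (85.0%) matched a symbol. The reference held 18 pseudogenes with symbols that match the rule, of which 6 were in the files, and these were left out. The members and the gene lists were chosen with earlier results of these data known.

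The deposited counts were tested with edgeR 4.0.16 in R 4.3.3 (quasi-likelihood test, robust, TMM scaling, filterByExpr; 18072 genes, all 16 libraries, Benjamini-Hochberg adjustment over all genes, threshold 0.05), and medians describe members beside all genes. CPM uses the same scaled library sizes. The deposited RPKM gave levels per length, isoform shares and, by its ratio to the counts, gene-model lengths. Alternatives used other scalings, DESeq2 1.42.0, limma 3.58.1 on log2(RPKM + 1) and log2(RPKM + 0.1), no filter, only the groups compared, each library left out, a replicate block, and removal of the length trend. Within a genotype, same-numbered libraries from both populations deviated together in all 8 pairs (correlation 0.103 to 0.366), which met the limit of 0.1 set for treating the numbers as pairs; in AKVPSL, though, GFP+ replicate 3 correlated more with GFP- replicate 4 (0.38), and GFP+ replicate 4 with GFP- replicate 3 (0.326), than with their own numbers (0.103 and 0.259). The main test did not use these pairs, and the replicate block used them for the sort comparisons and their difference. Between genotypes the block used replicate numbers alone, so it is no check of pairing there. The test was tried on simulated counts with known changes. Of 2-fold changes 66% to 82% were recovered over the 5 comparisons. Of the smallest changes simulated, below 2-fold, 42% to 54% were recovered between groups and 16% for the difference of sort effects. Of the calls, 4.88% to 6.55% were false. All 24 replicate pairs differed by more than counting noise (chi-square over its degrees of freedom 9.64 to 79.8). Total counts were 10.881 M to 41.602 M (M for 1e6), and the precision rests on the spread between libraries as well as on depth.

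Genes were named by rule: per comparison the 3 largest rises and falls that passed, at a mean log2 CPM of 1 or more, the member with the highest mean RPKM in each complex, isoform families, complex II in full, and up to 4 examples per complex and per list by adjusted p; core subunits were added after their values were seen. The values of 1 member are not reported here. Plots used Python 3.11.15 and matplotlib 3.10.9.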

Additional observations from a re-analysis of the deposited data

Results flagged for a closer look

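Of 136 groups of 4 libraries examined, 9 held a value far from the others by Dixon's test at 95%, and chance gives about 1 in 20. The summed complex I level was 2507 CPM in AKVPL GFP+ replicate 4, and the summed complex V level was 3780 CPM in AKVPL GFP+ replicate 2. Atp5a1 stood at 1193 CPM in AKVPSL GFP- replicate 2 and Sdha at 321 CPM in AKVPSL GFP+ replicate 1. Cox6a1 stood at 275.8 CPM in AKVPSL GFP- replicate 4, while in AKVPSL GFP- replicate 3 Uqcrq stood at 189.2 CPM and Cox6b2 at 0.931 CPM. Atp5k stood at 25.2 CPM in AKVPL GFP- replicate 4 and Cox7b at 56.7 CPM in AKVPL GFP+ replicate 4.

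The effect of the sort differed between the genotypes, by edgeR's test of the difference with adjustment over all genes, for 11 of the genes named by rule. The difference, AKVPSL minus AKVPL on the log2 scale, was -1.01 for Uqcr11, -1.004 for Uqcrq, -0.995 for Atp5k, -0.94 for Ndufa12, -0.89 for Ndufa4, -0.76 for Cox7b, -0.69 for Cox6a1, -0.66 for Cox6b1, -0.59 for Ndufa6, -0.53 for Uqcrh and -0.53 for Cox7a2. The calls of Uqcrh, Cox7b and Cox7a2 ended in most of the alternatives.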

How the results depend on the processing

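Of 71 calls of named genes, 30 held in every alternative. The count of members that rose in AKVPL GFP+ cells, 16, was 4 with DESeq2 size factors, 5 with library totals, 3 without mitochondrial genes in the library sizes, 3 with no filter, 4 with the DESeq2 Wald test, 5 with limma on log2(RPKM + 1), 5 with log2(RPKM + 0.1), 4 with limma and no filter, and 9 with only the groups compared. With epithelial scaling it was 0, 16 fell and the median was -0.217. For the sort in AKVPSL, 1 rose with epithelial scaling, with no filter and with only the groups compared. With the length trend removed, added after seeing the data, 12 rose and 13 fell (median -0.096), and with the replicate block as well 13 and 17 (-0.098). Between genotypes in GFP+ cells 4 fell with library totals or epithelial scaling, 1 with limma on log2(RPKM + 1) with or without the filter, and 5 with the length trend removed. In GFP- cells epithelial scaling gave 34 up and 6 down (0.256), limma with no filter 2 down, and length removal 40 up and 2 down (0.258). For the difference of sort effects, epithelial scaling gave 1 above and 9 below 0 (-0.238), leaving out mitochondrial genes 23 below, limma 1 above, with no filter 1 above and 22 below, and length removal 10 below (-0.165), or 15 (-0.183) with the block.

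Leaving out 1 library at a time gave, for members higher, lower and the median, 4 to 18, 3 and 0.11 to 0.257 for the sort in AKVPL, 1 to 3, 29 to 58 and -0.546 to -0.292 for the sort in AKVPSL, 13 to 24, 1 to 3 and 0.038 to 0.199 between genotypes in GFP+ cells, 59 to 69, 1 and 0.553 to 0.743 in GFP- cells, and 0, 30 to 47 and -0.647 to -0.459 for the difference. The replicate block gave 16 up and 3 down, 3 and 46, 20 and 2, 65 and 1, and 44 below 0 for the difference, and ended no named call other than that of Uqcrh in the difference. Same-numbered AKVPSL and AKVPL libraries, which share only a number, correlated at -0.039 to 0.279. Directions turned for Atp5a1 (-0.137), Atp5b (-0.094) and Sdha (-0.123) in the AKVPL sort and Ndufs1 (-0.001), Sdhb (-0.072) and Sdhc (-0.048) between genotypes in GFP- cells with epithelial scaling, and for Cox6b1 (-0.003), Sdhb (-0.063) and Sdhc (-0.01) there with length removal. The causes were not tested. Depth limits the low isoforms, whose folds rest on few counts.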
